A study of Mus musculus with 9 samples.

Results

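The 8 genes described here encode 5 receptors of the tumour necrosis factor receptor family (Fas, Tnfrsf10b, Tnfrsf1a, Tnfrsf12a and Tnfrsf21), the initiator caspase Casp8, its inactive relative Cflar and the kinase Ripk1. They were taken by gene symbol from the deposited table on the mouse mammary carcinoma line 4T1. The table lists 54532 genes, of which 13915 had enough reads to be tested, and all 8 were among these. Cells received Au/Cu-TCPP(Fe)-PEG (Au_TCPP), Cu-TCPP(Fe)-PEG (Cu_TCPP) or medium alone (Control) for 24 h, with 3 libraries in each group. The labels describe the copper material as one that consumes glutathione and the material with gold as also acting like a glucose oxidase. All cells were of the 4T1 line and were kept in high-glucose DMEM with serum and antibiotics. The doses are not given in the sources used. The labels do not say whether the 3 libraries of a group are separate cultures, so the p-values here cover only the spread between libraries, which may be technical.

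Death receptors are membrane proteins whose cytoplasmic death domain binds adaptors once a ligand has clustered them. Fas and the receptor of the ligand TRAIL, which is Tnfrsf10b in the mouse, recruit the adaptor Fadd, which in turn brings procaspase-8 molecules together so that they cut each other and then the effector caspases. The TNF receptor Tnfrsf1a first assembles Tradd, Ripk1 and ubiquitin ligases into a complex that feeds the NF-kappa-B pathway, and forms a Casp8-containing complex when that signal is blocked. Cflar pairs with Casp8 and limits its processing. Tnfrsf12a binds the ligand TWEAK and has no death domain, and Tnfrsf21 is a death-domain receptor.

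The windows before the start sites of 4 of these genes are printed because Fas and Tnfrsf21 moved in opposite directions with Cu_TCPP, while Tnfrsf12a had the highest level and Cflar lies beside Casp8. They are 250 bases long, end at the base before the start and come from RefSeq on GRCm38.p6, which held a window for 7 of the 8 genes and none for Tnfrsf10b. Fas is at chr19:34290409-34290658 (plus strand), Tnfrsf12a at chr17:23677450-23677699 (minus strand), Tnfrsf21 at chr17:43016305-43016554 (plus strand) and Cflar at chr1:58711241-58711490 (plus strand). Each runs 5′ to 3′ along its gene's strand.
Fas: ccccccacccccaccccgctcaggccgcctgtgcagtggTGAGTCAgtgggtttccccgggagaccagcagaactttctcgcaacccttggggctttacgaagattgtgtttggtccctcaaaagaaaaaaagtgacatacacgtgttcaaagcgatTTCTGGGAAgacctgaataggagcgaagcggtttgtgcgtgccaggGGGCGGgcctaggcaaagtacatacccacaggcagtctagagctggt
Tnfrsf12a: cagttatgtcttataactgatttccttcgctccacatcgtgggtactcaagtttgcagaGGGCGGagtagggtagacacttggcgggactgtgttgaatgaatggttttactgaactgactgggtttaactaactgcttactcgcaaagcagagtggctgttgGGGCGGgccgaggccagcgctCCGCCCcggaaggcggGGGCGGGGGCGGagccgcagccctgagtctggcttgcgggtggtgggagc
Tnfrsf21: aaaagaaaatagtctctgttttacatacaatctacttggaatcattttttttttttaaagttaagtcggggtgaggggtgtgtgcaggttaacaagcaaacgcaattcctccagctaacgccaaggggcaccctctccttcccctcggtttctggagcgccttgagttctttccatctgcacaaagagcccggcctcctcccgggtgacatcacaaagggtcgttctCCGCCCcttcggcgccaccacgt
Cflar: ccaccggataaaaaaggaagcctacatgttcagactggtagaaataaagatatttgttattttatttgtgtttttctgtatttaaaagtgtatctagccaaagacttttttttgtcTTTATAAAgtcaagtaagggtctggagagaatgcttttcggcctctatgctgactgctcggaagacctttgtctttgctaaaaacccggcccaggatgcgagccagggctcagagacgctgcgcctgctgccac
Capitals mark matches, on either strand, to any of 6 motifs. The AP-1 motif was searched as TGANTCA, which 6.75% of the 32851 windows of this length in the table hold. The GAS motif, a site type of STAT factors, was searched as TTCNNNGAA, which 7.02% hold. The kappa-B motif was found in 1.41% of windows. For TEAD factors the letters were GGAATG, present in 12.6%. The GC box was searched as GGGCGG, present in 32.7%, and the TATA box as TATAAA, present in 12.4%. The Fas window holds the AP-1, GAS and GC box motifs once each, starting at positions -211, -93 and -47 from the gene's start. The Tnfrsf12a window holds 5 GC boxes and none of the other patterns, and the Tnfrsf21 window has 1 GC box at -23. In the Cflar window the capitals are 2 overlapping TATAAA matches on opposite strands, at -134 and -132. Bases G and C make up 56.4% of the Fas window, 58.8% of that of Tnfrsf12a, 50.4% of that of Tnfrsf21 and 42.8% of that of Cflar, against a median of 52.4% over all windows. A match here describes letters and was not tested as a binding site.

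Total counts lay between 15477324 and 17494776 per library. The mean length of the gene that a read was counted in was 4549 to 4669 nt in Au_TCPP, against 5601 to 5754 nt in Cu_TCPP and Control, and long genes as a class were lower in Au_TCPP. Au_TCPP replicate 2 had 2.37% of its reads in mitochondrial genes, against 1.09 to 1.47% in the other 8 libraries. For the 8 genes, calls that changed without this library are given. Of 8 epithelial markers 6 were tested, and these were present in every library. Krt5 was at 0 throughout, and Krt14 had at most 3 reads in any Cu_TCPP or Control library and 2 to 17 in Au_TCPP. The summed level of the 8 was 4410 to 5340 CPM in Au_TCPP, 2850 to 3190 CPM in Cu_TCPP and 2930 to 3190 CPM in Control. Of 8 macrophage markers 3 were tested, and the list summed to 79.9 to 98.7 CPM in Au_TCPP, 27.3 to 31.0 CPM in Cu_TCPP and 40.7 to 44.0 CPM in Control. Cd68 and Cd14 made up most of this, while Adgre1 was at 0 in all libraries and Csf1r had at most 2 reads in any. Lymphocyte markers summed to at most 3.87 CPM. Fibroblast markers summed to 27.1 to 32.1 CPM in Au_TCPP, 16.4 to 20.1 CPM in Cu_TCPP and 35.8 to 40.9 CPM in Control. In each library most of this sum was a single gene, Pdgfra, and Lum and Pdgfrb were at 0 in all libraries. Endothelial markers summed to 30.4 to 35.8, 35.3 to 37.6 and 41.6 to 46.3 CPM in the same order. Nearly all of this was Eng, the only endothelial marker tested, and Emcn was at 0 in all libraries. The part of these differences in the results was not tested. Levels of a gene between libraries are given as CPM, counts per library total scaled by TMM factors, and a gene is called when its adjusted p from edgeR, over all tested genes, is under 0.05.

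With the gold material, 7 of the 8 genes rose against Control and none fell, while Cflar was not called. With the copper material alone, Tnfrsf12a, Tnfrsf21, Casp8 and Cflar rose, Fas fell and the other 3 genes were not called. Between the materials, Au_TCPP was higher than Cu_TCPP for 6 genes, lower for Cflar, and not called for Tnfrsf21. These counts stand against a background in which large parts of the transcriptome were called. In Au_TCPP against Control 69.1% of tested genes were called, 34.4% higher and 34.7% lower. In Cu_TCPP against Control 40.4% were called, 19.2% higher and 21.2% lower, and in Au_TCPP against Cu_TCPP 65.9%, of which 34.6% were higher and 31.3% lower. The count of 7 in Au_TCPP against Control fell to 4 without Control replicate 3, and with library totals alone in place of TMM factors it was 3 higher and 1 lower. In Au_TCPP against Cu_TCPP, library totals alone gave 3 higher and 2 lower, and offsets for gene length 5 higher and 0 lower. For the 0 lower genes, 1 gene was lower at an unadjusted p under 0.05 in edgeR, and DESeq2 and limma called 0 lower. That gene, Cflar, was called lower with a filter of at least 1 CPM in 3 libraries and without Cu_TCPP replicate 1 or 2. It was also called lower without Au_TCPP replicate 2, with a split of 6 higher and 1 lower, and without Au_TCPP replicate 3, with 5 and 1. In Au_TCPP against Control the libraries of the groups did not overlap for 5 of the 8 genes, against 71.9% of all tested genes. In Cu_TCPP against Control this held for 6 genes, against 59.4%, and in Au_TCPP against Cu_TCPP for 6, against 67.0%. The median log2 fold change over the 8 genes was 0.53, 0.24 and 0.37 in these comparisons, against -0.01, -0.01 and 0.04 over all tested genes. In RNA of whole cultures, fewer cells that carry a transcript and less of it per cell cannot be told apart. The comparisons of each material with Control share the Control libraries.

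**Figure D1:**
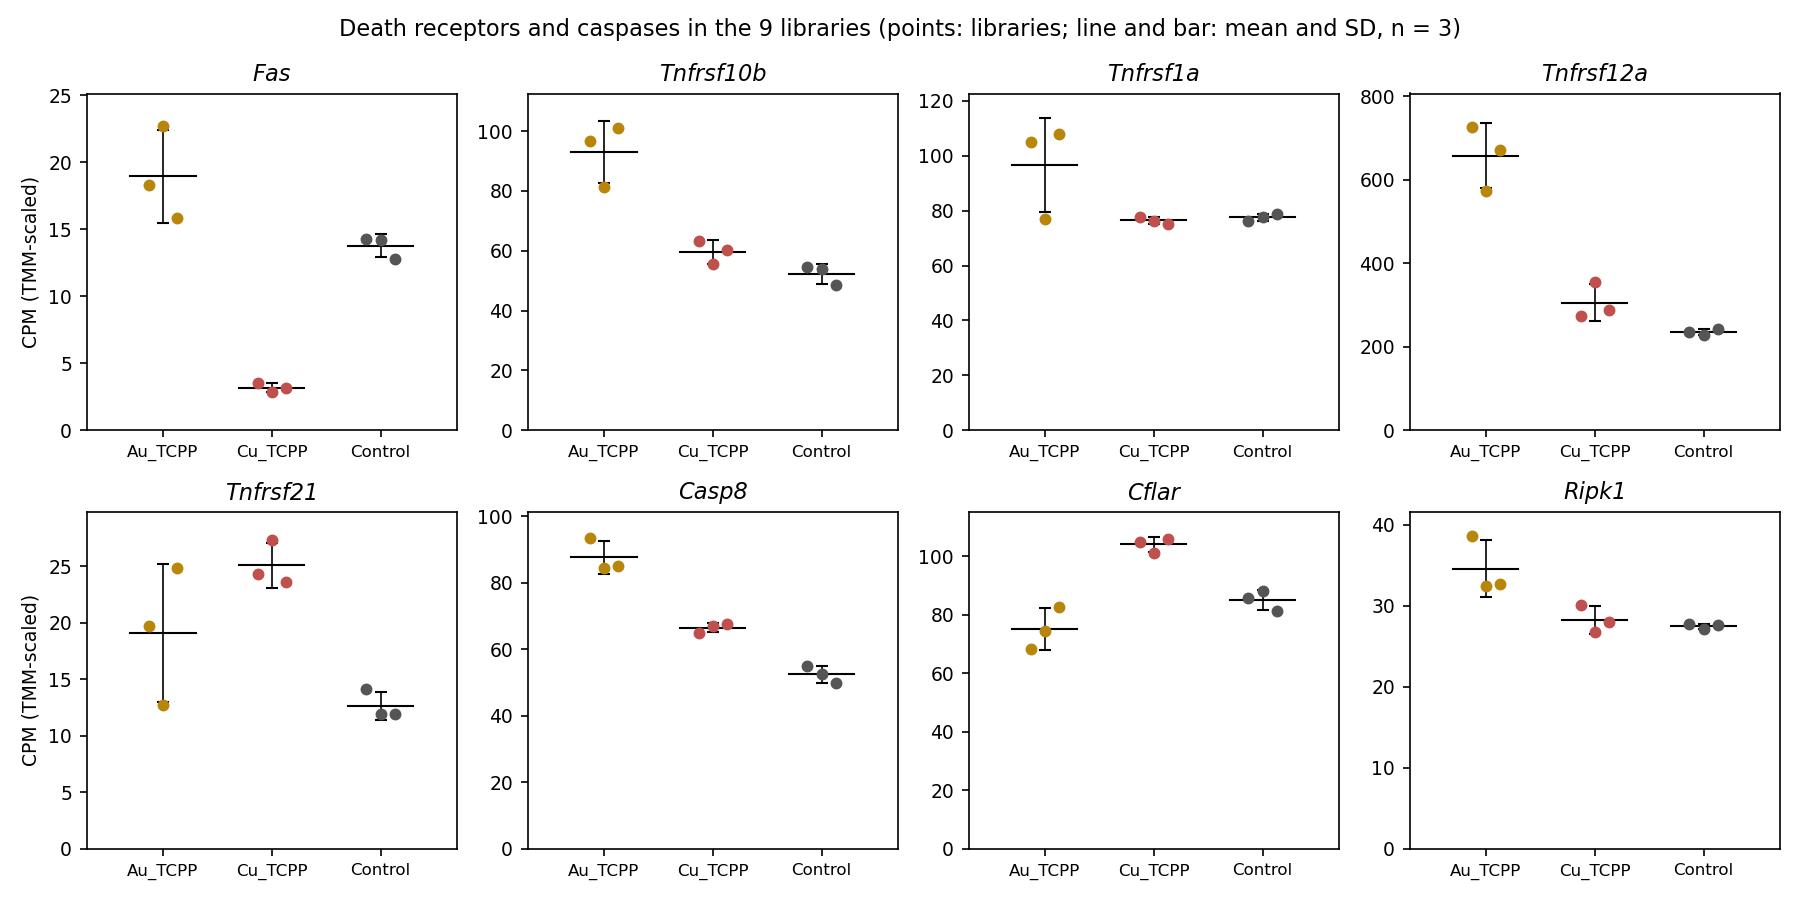
Level in TMM-scaled CPM (vertical axes from 0, one panel per gene) in the 3 libraries of Au_TCPP, Cu_TCPP and Control. Points are libraries and the line and bar are the mean and SD with n = 3; Fas in Cu_TCPP lies at 2.87 to 3.52 CPM, below all other libraries, and Tnfrsf12a in Au_TCPP at 573 to 727 CPM, above all others.

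**Figure D2:**
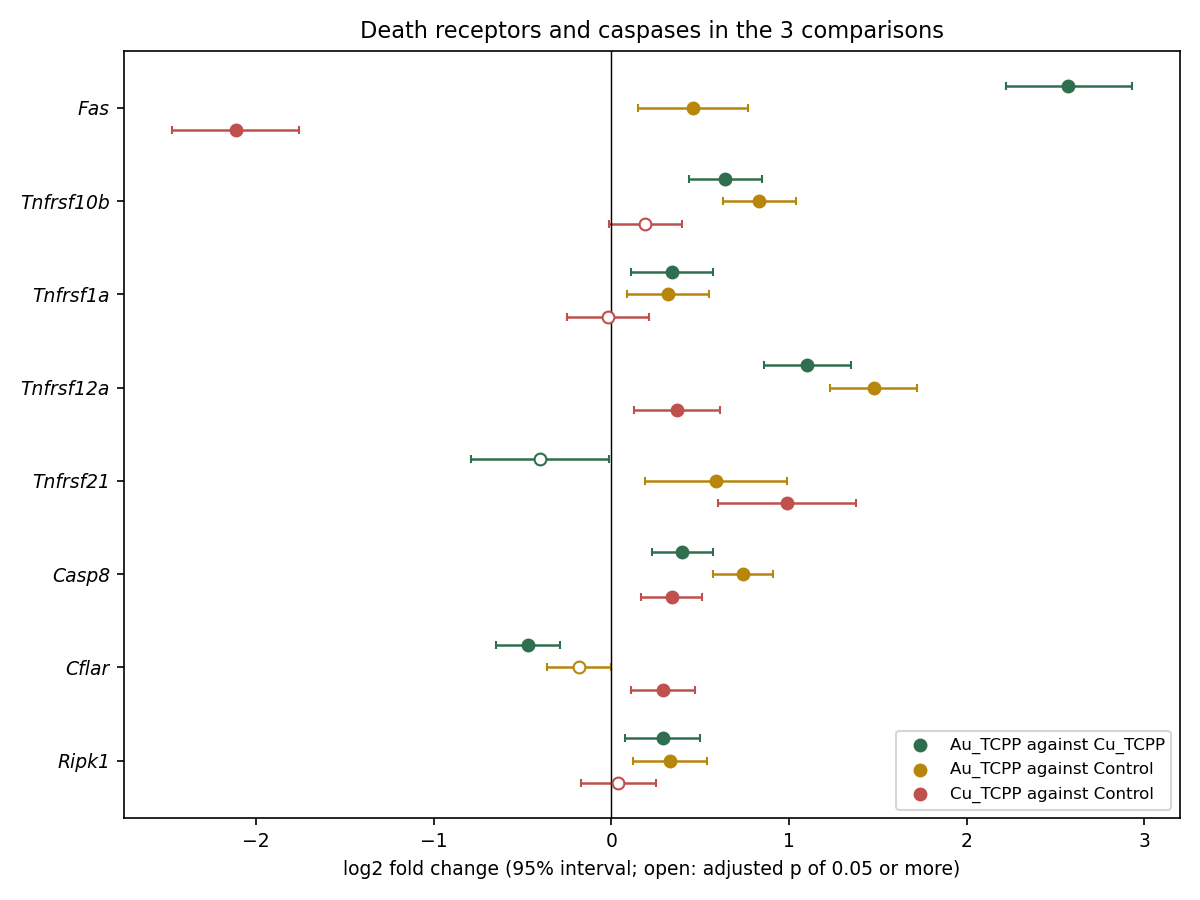
log2 fold change with its 95% interval from the edgeR fit (horizontal axis) for each of the 8 genes, with 1 colour per comparison and open points where the adjusted p was 0.05 or more. Fas lies at -2.11 in Cu_TCPP against Control and at 2.57 in Au_TCPP against Cu_TCPP, and the other 7 genes lie between -0.47 and 1.48.

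Fas, the receptor of Fas ligand, had 18.3, 22.7 and 15.8 CPM in Au_TCPP, 3.52, 2.87 and 3.16 CPM in Cu_TCPP and 14.3, 14.2 and 12.8 CPM in Control. The 3 groups did not overlap, and the Cu_TCPP libraries, with 54 to 62 reads each, were far below the rest. Fas fell in Cu_TCPP against Control by 2.11 on the log2 scale (SE 0.165, edgeR adjusted p = 5.7e-07), a level 4.32-fold lower. In Au_TCPP it was 5.95-fold higher than in Cu_TCPP (log2 fold change 2.57, SE 0.165, edgeR adjusted p = 6.4e-09). Both differences were called in all 19 other fits, with log2 fold changes of -2.18 to -1.62 and 2.01 to 2.64. Against Control the rise in Au_TCPP was small (log2 fold change 0.46, SE 0.144, edgeR adjusted p = 0.011). It was not called without Au_TCPP replicate 2 (0.28, adjusted p = 0.059), without Control replicate 3 (0.38, adjusted p = 0.065), with offsets for gene length (0.22, adjusted p = 0.17) or with library totals alone (0.05, adjusted p = 0.81). Cd68, a marker of the macrophage list, averaged 61.3 ± 12.1 CPM in Au_TCPP, 11.3 ± 2.11 CPM in Cu_TCPP and 27.1 ± 1.94 CPM in Control (SD, n = 3 each). The other tested markers of that list were Cd14 at 20.5 ± 1.91, 11.7 ± 0.424 and 12.2 ± 0.489 CPM and Mrc1 at 6.10 ± 3.73, 5.92 ± 0.577 and 2.25 ± 0.283 CPM, in each case in Au_TCPP, Cu_TCPP and Control (SD, n = 3 each). In Cu_TCPP against Control, Mrc1 was called higher (log2 fold change 1.39, edgeR adjusted p = 0.016) and Cd14 was not called (-0.06, edgeR adjusted p = 0.69). The part of these markers in the values of Fas was not tested.

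The TRAIL receptor gene Tnfrsf10b had 96.8, 81.3 and 101 CPM in Au_TCPP, 63.2, 55.4 and 60.4 CPM in Cu_TCPP and 54.4, 53.9 and 48.4 CPM in Control. All Au_TCPP libraries lay above all libraries of the other groups. Against Control it rose in Au_TCPP by a log2 fold change of 0.83 (SE 0.0963, edgeR adjusted p = 2.3e-06), and it was 1.56-fold higher in Au_TCPP than in Cu_TCPP (log2 fold change 0.64, SE 0.0958, edgeR adjusted p = 3.4e-05). Both calls held in all 19 other fits. The Cu_TCPP libraries also lay above those of Control without overlap, but that difference of 0.19 was not called (95% interval -0.01 to 0.40, edgeR adjusted p = 0.13). It was called without Au_TCPP replicate 2 (0.20, adjusted p = 0.026), in the fit of the 6 libraries alone (0.20, adjusted p = 0.026), with offsets for gene length (0.28, adjusted p = 0.026), and in the authors' deposited table (adjusted p = 0.04).

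Tnfrsf12a, the most abundant of the 8 transcripts also per length, had 727, 573 and 672 CPM in Au_TCPP, 274, 356 and 287 CPM in Cu_TCPP and 236, 229 and 243 CPM in Control. None of the groups overlapped. Its rise in Au_TCPP against Control was 2.78-fold (log2 fold change 1.48, SE 0.114, edgeR adjusted p = 3.7e-08), and Au_TCPP exceeded Cu_TCPP 2.15-fold (log2 fold change 1.10, SE 0.113, edgeR adjusted p = 7.2e-07). Both were called in all 19 other fits. The rise in Cu_TCPP against Control was 1.30-fold (log2 fold change 0.37, SE 0.112, edgeR adjusted p = 0.016), and it was not called without Control replicate 2 (0.36, adjusted p = 0.059) or without Cu_TCPP replicate 2 (0.26, adjusted p = 0.075).

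Tnfrsf21 was the receptor with its highest level in the copper group, at 19.7, 12.7 and 24.8 CPM in Au_TCPP, 24.3, 27.3 and 23.6 CPM in Cu_TCPP and 14.1, 11.9 and 11.9 CPM in Control. The Cu_TCPP libraries lay above Control without overlap, while the Au_TCPP libraries spread across both. Its rise in Cu_TCPP against Control was 1.99-fold (log2 fold change 0.99, SE 0.182, edgeR adjusted p = 0.00071) and was called in all 19 other fits. The rise in Au_TCPP against Control had a log2 fold change of 0.59 (SE 0.187, edgeR adjusted p = 0.012). That call was lost without Au_TCPP replicate 3 (0.33, adjusted p = 0.10), without Control replicate 2 (0.52, adjusted p = 0.055), without Control replicate 3 (0.52, adjusted p = 0.054) and with library totals alone (0.16, adjusted p = 0.43). Au_TCPP and Cu_TCPP differed by -0.40, which was not called (95% interval -0.79 to -0.01, edgeR adjusted p = 0.064). It was called in 5 of 19 other fits, among them the one without Au_TCPP replicate 3 (-0.68, adjusted p = 0.0026).

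Tnfrsf1a, the main receptor of TNF in most cells, had 105, 76.9 and 108 CPM in Au_TCPP, 77.8, 76.4 and 75.1 CPM in Cu_TCPP and 76.1, 77.8 and 78.7 CPM in Control. Au_TCPP replicates 1 and 3 were high and replicate 2 lay among the other groups, so Au_TCPP overlapped both. Cu_TCPP and Control differed by -0.02 (95% interval -0.25 to 0.21, edgeR adjusted p = 0.90). Au_TCPP was called higher than Control (log2 fold change 0.32, SE 0.108, edgeR adjusted p = 0.017) and than Cu_TCPP (0.34, SE 0.108, edgeR adjusted p = 0.012). Without Au_TCPP replicate 2 these values were 0.43 (adjusted p = 1.2e-05) and 0.44 (adjusted p = 1e-05). Neither was called without Au_TCPP replicate 1 (0.23 and 0.24, adjusted p = 0.11 in both) or without Au_TCPP replicate 3 (0.20 and 0.21, adjusted p = 0.13 and 0.11). The call against Control was also lost without Control replicate 1, 2 or 3 (0.27 to 0.30, adjusted p = 0.06 to 0.09), and the call against Cu_TCPP without Cu_TCPP replicate 1 or 2 (0.31 and 0.29, adjusted p = 0.054 and 0.066). Neither was called with offsets for gene length (0.20 and 0.11, adjusted p = 0.14 and 0.43), and the call against Cu_TCPP was also lost in the fit of the 6 libraries alone (0.29, adjusted p = 0.054) and in both limma fits (0.27 and 0.28, adjusted p = 0.062 and 0.061). With library totals alone both were negative, at -0.11 and -0.04. In the authors' deposited table neither passed, with adjusted p-values of 0.069 and 0.10.

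Levels of different genes were compared as the authors' deposited FPKM, which divide by gene length. These also carry a factor per library of unknown origin, which is the same for all genes of a library. In Au_TCPP the receptors stood in the order Tnfrsf12a (332 FPKM), Tnfrsf1a (36.5), Tnfrsf10b (16.7), Fas (10.3) and Tnfrsf21 (4.53). In Cu_TCPP Fas was the lowest of the 8 genes, with Tnfrsf12a at 159 FPKM, Tnfrsf1a at 29.7, Tnfrsf10b at 11.0, Tnfrsf21 at 6.14 and Fas at 1.78. In Control the order was that of Au_TCPP, with 120, 29.4, 9.40, 7.50 and 3.02 FPKM. Of the summed FPKM of the 5 receptors, Tnfrsf12a made up 83.0 ± 0.727% in Au_TCPP, 76.4 ± 2.69% in Cu_TCPP and 70.9 ± 0.915% in Control (SD, n = 3 each), without overlap. The share of Fas was 2.62 ± 0.795% in Au_TCPP, 0.867 ± 0.170% in Cu_TCPP and 4.44 ± 0.332% in Control (SD, n = 3 each), also without overlap. Among the downstream genes, Casp8 had 29.6 FPKM in Au_TCPP, 23.1 in Cu_TCPP and 17.8 in Control, above Cflar with 5.78, 8.26 and 6.59 FPKM and Ripk1 with 4.05, 3.41 and 3.23 FPKM. Neighbours whose libraries overlapped were Tnfrsf1a with Casp8, Cflar with Tnfrsf21 and Tnfrsf21 with Ripk1 in Au_TCPP, and Ripk1 with Tnfrsf21 in Control. In Cu_TCPP no neighbours in the order overlapped.

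Casp8, the protease that death receptor complexes activate, had 93.4, 84.4 and 85.2 CPM in Au_TCPP, 64.9, 66.9 and 67.5 CPM in Cu_TCPP and 55.0, 52.5 and 49.9 CPM in Control. The 3 groups did not overlap. Casp8 rose in Au_TCPP against Control by a log2 fold change of 0.74 (SE 0.0788, edgeR adjusted p = 9.9e-07) and in Cu_TCPP against Control by 0.34 (SE 0.0785, edgeR adjusted p = 0.0033), and both were called in all 19 other fits. Au_TCPP exceeded Cu_TCPP by 0.40 (SE 0.0781, edgeR adjusted p = 0.00038), which library totals alone reduced to 0.03 (adjusted p = 0.77).

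Cflar had 68.2, 74.3 and 82.5 CPM in Au_TCPP, 105, 101 and 106 CPM in Cu_TCPP and 85.7, 88.1 and 81.3 CPM in Control. The Cu_TCPP libraries lay above all others, and Au_TCPP and Control overlapped. It rose in Cu_TCPP against Control by a log2 fold change of 0.29 (SE 0.0832, edgeR adjusted p = 0.012), which was not called without Control replicate 3 (0.27, adjusted p = 0.057). Au_TCPP was below Cu_TCPP by 0.47 on the log2 scale (SE 0.0841, edgeR adjusted p = 0.00017), and its difference from Control of -0.18 was not called (edgeR adjusted p = 0.069). That difference was called lower without Cu_TCPP replicate 1 or 2 (-0.21 in both, adjusted p = 0.048 and 0.043). The same held without Au_TCPP replicate 2 (-0.20, adjusted p = 0.039) and without Au_TCPP replicate 3 (-0.29, adjusted p = 0.0073). It was also called lower with a filter of at least 1 CPM in 3 libraries (-0.21, edgeR adjusted p = 0.037) and with library totals alone (-0.60, adjusted p = 1.3e-05). Cflar is the longest of the 8 genes, with 12669 nt of exons, and the 500 tested genes nearest to it in length had a median log2 fold change of -0.49 in Au_TCPP against Control and -0.37 against Cu_TCPP. With offsets for gene length the sign against Control turned, to 0.30 (adjusted p = 0.0022), and the difference from Cu_TCPP was -0.08 (adjusted p = 0.39).

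Casp8 and Cflar are neighbours on chromosome 1 (mm10), with Cflar at 58711508 to 58758884 and Casp8 at 58795374 to 58847503 on the same strand. The gap of 36489 bp holds 1 other gene, Gm3841, with 0 counts in all libraries. Per read of Cflar there were 1.37, 1.14 and 1.03 reads of Casp8 in Au_TCPP, 0.616, 0.661 and 0.639 in Cu_TCPP and 0.642, 0.596 and 0.614 in Control. All Au_TCPP libraries lay above both other groups, while Cu_TCPP and Control overlapped. This ratio needs no scaling between libraries, but it compares a gene of 2893 nt with one of 12669 nt. With offsets for gene length, Casp8 was at 0.66 and Cflar at 0.30 in Au_TCPP against Control, so the gap between their fold changes was smaller than in the fit without offsets (0.74 and -0.18).

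**Figure D3:**
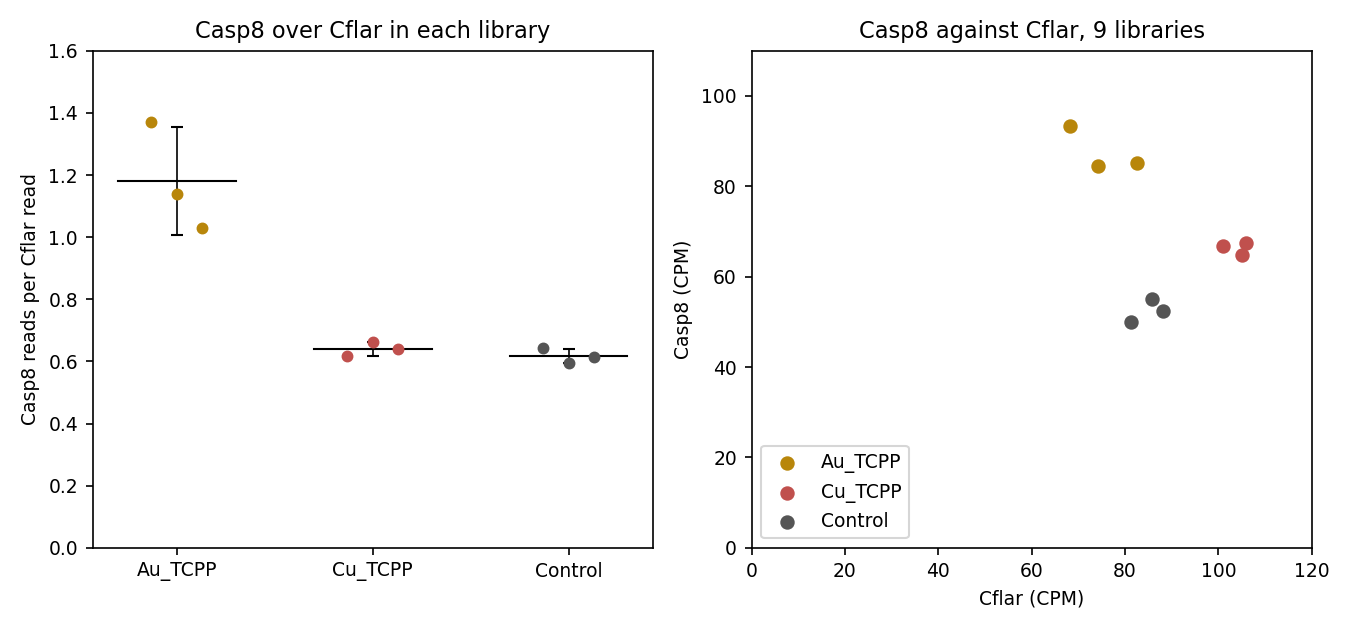
Left, reads of Casp8 per read of Cflar (vertical axis from 0) in each library of Au_TCPP, Cu_TCPP and Control, with the mean and SD (n = 3). Right, Casp8 against Cflar in TMM-scaled CPM for the 9 libraries: the ratio was 1.03 to 1.37 in Au_TCPP and 0.596 to 0.661 in the other libraries.

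Ripk1, the kinase of the TNF receptor complex, had 38.6, 32.4 and 32.7 CPM in Au_TCPP, 30.1, 26.7 and 28.0 CPM in Cu_TCPP and 27.7, 27.1 and 27.6 CPM in Control. Au_TCPP lay above both other groups, which overlapped each other. Cu_TCPP and Control differed by 0.04 (95% interval -0.17 to 0.25, edgeR adjusted p = 0.77). Ripk1 was higher in Au_TCPP than in Control (log2 fold change 0.33, SE 0.0973, edgeR adjusted p = 0.0073), but not without Au_TCPP replicate 1 (0.22, adjusted p = 0.067). Au_TCPP also exceeded Cu_TCPP (0.29, SE 0.0972, edgeR adjusted p = 0.016), a call that 8 of 19 other fits kept. That call was lost without Au_TCPP replicate 1 (0.17, adjusted p = 0.16), without Cu_TCPP replicate 2 or 3 (0.21 and 0.28, adjusted p = 0.11 and 0.056) and without Control replicate 1, 2 or 3 (0.25 in each, adjusted p = 0.051 to 0.054). It was also lost with no filter (0.22, adjusted p = 0.15), in the fit of the 6 libraries alone (0.24, adjusted p = 0.084) and in both limma fits (0.19 and 0.24, adjusted p = 0.061 and 0.068). In the authors' deposited table the difference from Cu_TCPP did not pass (adjusted p = 0.18), while that from Control did (adjusted p = 0.031). With library totals alone both signs turned, to -0.09 and -0.08. The values of Ripk1 are uncertain, because 241 of its 8344 exonic nt are shared with Serpinb6a on the other strand. Serpinb6a had 6034 to 15458 reads, and strand use in the counting is not given. Another 511 nt are shared with Gm17084 on the same strand, which had 0 reads in all libraries.

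The difference in counted gene length bears on each gene in a different measure. Against Control, the 500 genes of most similar length had a median log2 fold change in Au_TCPP of 0.27 for Fas and Tnfrsf12a, 0.17 for Tnfrsf1a, 0.10 for Casp8, -0.04 for Tnfrsf21, -0.23 for Tnfrsf10b and -0.39 for Ripk1. The genes themselves exceeded these medians by 0.19, 1.21, 0.15, 0.64, 0.63, 1.07 and 0.72 in the same order. Thus Fas and Tnfrsf1a lay close to genes of their length in that comparison, while Tnfrsf12a and Tnfrsf10b lay furthest above them. In Cu_TCPP against Control the corresponding medians were between -0.05 and 0.00. With library totals alone the median of all tested genes shifted by -0.43 in Au_TCPP against Control and by -0.33 against Cu_TCPP. Tnfrsf12a, Tnfrsf10b and Casp8 kept their calls against Control in that scaling, at 1.05, 0.41 and 0.32, which lie further above the shifted median than above 0.

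**Figure D4:**
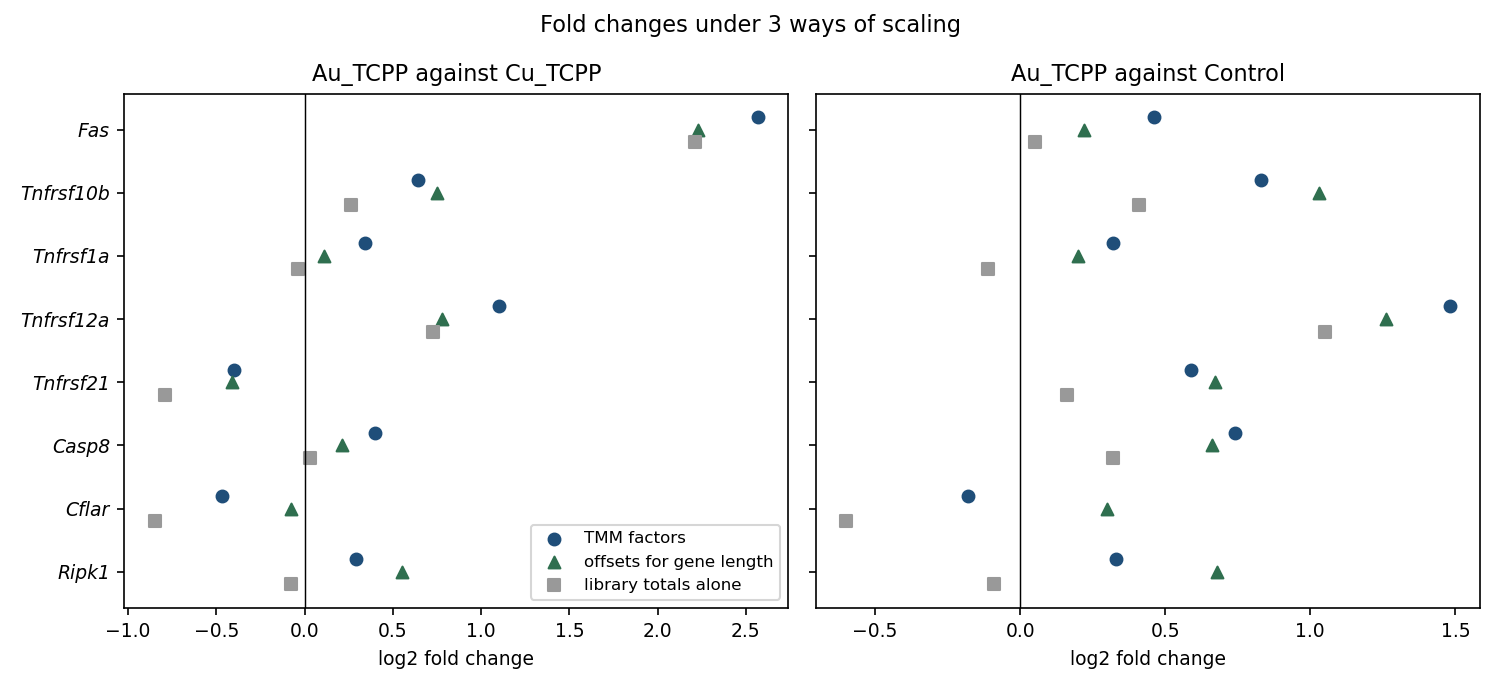
log2 fold change (horizontal axes) of the 8 genes in Au_TCPP against Cu_TCPP (left) and against Control (right) with TMM factors, offsets for gene length and library totals alone. Cflar against Control lies at -0.18, 0.30 and -0.60 in that order of methods, and Tnfrsf12a at 1.48, 1.26 and 1.05.

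The profiles of the 8 genes over the 9 libraries were not alike. Likeness was measured as the root mean square difference of log2 CPM after each gene was centred on its mean. Among the 8, the nearest pair was Tnfrsf1a and Ripk1 (0.121), followed by Tnfrsf10b and Casp8 (0.135), and Fas was at least 1.01 from each of the other genes. Among 9710 tested genes of at least 5 CPM, the nearest to Fas were Dhx58 (0.192), Ephx1 (0.214) and Irf9 (0.220). Dhx58 had mean levels of 11.3 CPM in Au_TCPP, 2.04 CPM in Cu_TCPP and 9.24 CPM in Control. The nearest to Tnfrsf12a were Prdx5, Erf and Grpel1 (0.0683 to 0.0930), to Tnfrsf21 Tead4, Rcc1 and Map2k3 (0.114 to 0.146), and to Tnfrsf10b Nap1l1, Tram1 and Ikbkg (0.0269 to 0.0431). For Casp8 they were Anxa3, Timm17a and Srpr (0.0441 to 0.0562), for Cflar Itsn2, Ints2 and Ddx56 (0.0487 to 0.0687), for Tnfrsf1a Prkar1a, Snx9 and Rhbdf2 (0.0482 to 0.0643), and for Ripk1 Vrk1, Pdlim5 and Dync1i2 (0.0430 to 0.0535). Genes with a small range, such as Tnfrsf1a and Ripk1, have near neighbours by this measure more readily than Fas, and all points share the same libraries.

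The 7 ligands of the family on the list were at or near the limit of detection. Fasl, Tnf, Tnfsf10 (TRAIL), Tnfsf12 (TWEAK), Lta, Ltb and Tnfsf15 had at most 8 reads in any library, and none of the 7 was tested. Fasl had 3 reads in all 9 libraries together, Tnfsf10 had 23 and Tnfsf12 had 14. With so few reads, differences between the groups in the transcripts of these 7 were not assessed.

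Of the 74 other genes of the pathway, in 7 lists, 58 were tested. In Au_TCPP against Control 14 rose and 27 fell, in Cu_TCPP against Control 9 rose and 20 fell, and in Au_TCPP against Cu_TCPP 19 were higher and 24 lower. Of the 58, 41, 29 and 43 were thus called, against 69.1%, 40.4% and 65.9% of all tested genes, and the counts of the single lists below stand against the same shares. Their median log2 fold changes were -0.24, -0.10 and -0.09, against -0.01, -0.01 and 0.04 over all tested genes. The split of calls moved with the scaling. With library totals alone it was 7 higher and 38 lower in Au_TCPP against Control and 10 higher and 32 lower against Cu_TCPP, and with offsets for gene length it was 16 higher and 15 lower in Cu_TCPP against Control. Without Cu_TCPP replicate 3, 19 of these genes were called in Cu_TCPP against Control in place of 29.

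Among 5 tested receptors of the same family outside the 8, Tnfrsf1b, the second TNF receptor, fell with both materials. It had 57.1, 58.0 and 56.7 CPM in Au_TCPP, 42.4, 43.8 and 46.9 CPM in Cu_TCPP and 76.7, 80.8 and 81.5 CPM in Control. The 3 groups did not overlap, and the log2 fold change was -0.84 in Cu_TCPP (SE 0.077, edgeR adjusted p = 2.2e-06) and -0.48 in Au_TCPP (SE 0.0769, edgeR adjusted p = 6.5e-05). The mouse decoy receptors of TRAIL moved apart in Au_TCPP against Control, with Tnfrsf23 at 0.60 (edgeR adjusted p = 0.00032) and Tnfrsf22 at -0.61 (edgeR adjusted p = 6.6e-05). These decoys are closely related genes whose reads could be split between them, so both are uncertain, and with library totals alone Tnfrsf23 was not called (0.18, adjusted p = 0.17).

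The adaptor Fadd, which links Fas and the TRAIL receptor to Casp8 and was singled out after its values were seen, fell in Au_TCPP. It had 2.39, 2.11 and 1.97 CPM in Au_TCPP, 6.92, 7.54 and 6.44 CPM in Cu_TCPP and 6.11, 6.69 and 5.48 CPM in Control, which is 25 to 32 reads in each Au_TCPP library. Au_TCPP lay below both other groups, and the log2 fold change was -1.49 against Control (SE 0.189, edgeR adjusted p = 5.9e-06) and -1.69 against Cu_TCPP (SE 0.187, edgeR adjusted p = 1.7e-06). Both were called in all 19 other fits, with values of -1.91 to -0.72 against Control. Of the 23 adaptors and members of the ubiquitin machinery, all tested, 5 rose and 12 fell in Au_TCPP against Control, 2 rose and 5 fell in Cu_TCPP against Control, and 4 were higher and 10 lower in Au_TCPP against Cu_TCPP. Their medians were -0.24, -0.10 and -0.16, and the shares of all tested genes called were 69.1%, 40.4% and 65.9%. With offsets for gene length the counts were 6 higher and 10 lower, 6 and 3, and 7 and 10, and with library totals alone they were 2 and 16 in Au_TCPP against Control and 3 and 15 in Au_TCPP against Cu_TCPP. Without Au_TCPP replicate 2, 4 were called higher and 7 lower in Cu_TCPP against Control.

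Several genes of the same list carry the receptor signal to NF-kappa-B. Ikbkb, a catalytic subunit of the I-kappa-B kinase, fell in Au_TCPP against Control by 1.08 on the log2 scale (SE 0.0809, edgeR adjusted p = 2.8e-08), with values of -1.50 to -0.46 in the other 19 fits, all called. Chuk, the other catalytic subunit, went the other way. It rose by 0.34 in Au_TCPP (SE 0.0962, edgeR adjusted p = 0.0062) and by 0.50 in Cu_TCPP (SE 0.0952, edgeR adjusted p = 0.00088), both against Control. Ikbkg, the regulatory subunit of this kinase, had 119, 106 and 129 CPM in Au_TCPP, 77.2, 67.9 and 73.0 CPM in Cu_TCPP and 67.1, 63.0 and 61.7 CPM in Control, without overlap between Au_TCPP and the rest. It rose by 0.88 against Control (SE 0.0897, edgeR adjusted p = 6.3e-07). Tab1, a partner of the kinase Map3k7, fell in Au_TCPP against Control by 1.41 (SE 0.13, edgeR adjusted p = 2.3e-07). Traf3, an adaptor that limits the non-canonical NF-kappa-B pathway, rose in Cu_TCPP against Control by 0.69 (SE 0.0955, edgeR adjusted p = 7.1e-05), and Au_TCPP was lower than Cu_TCPP by 1.26 (SE 0.0982, edgeR adjusted p = 4.4e-08).

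Of 8 other caspases tested, 5 fell in Cu_TCPP against Control and none rose, where 21.2% of all tested genes were called lower and 19.2% higher. None was higher at an unadjusted p under 0.05 in edgeR, DESeq2 called 0 higher and 4 lower, and each limma fit and the offsets for gene length gave 0 higher and 3 lower. In Au_TCPP against Control 3 rose and 1 fell, and Au_TCPP exceeded Cu_TCPP for 6 and lay below it for 1, where 34.4% and 34.7%, and 34.6% and 31.3%, of all tested genes were called higher and lower. These splits were, with library totals alone, 1 higher and 2 lower against Control and 4 and 2 against Cu_TCPP, and without Au_TCPP replicate 2 the split against Control was 3 and 3. The medians were -0.41 with copper, 0.15 with gold and 0.71 between the materials. Casp1, the inflammatory caspase, had 23.2, 17.5 and 20.4 CPM in Au_TCPP, 5.33, 4.72 and 5.87 CPM in Cu_TCPP and 8.67, 7.39 and 7.40 CPM in Control. The 3 groups did not overlap, and Au_TCPP was 2.60-fold above Control (log2 fold change 1.38, SE 0.146, edgeR adjusted p = 8.9e-07). In Cu_TCPP it was lower than in Control (-0.56, SE 0.156, edgeR adjusted p = 0.011), which was not called without Control replicate 1 (-0.47, adjusted p = 0.056) or without Cu_TCPP replicate 2 (-0.47, adjusted p = 0.05). Casp9, the initiator of the mitochondrial route, fell in Au_TCPP against Control by 0.62 (SE 0.125, edgeR adjusted p = 0.00049).

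Among 8 inhibitors of apoptosis and their antagonists, 2 rose and 4 fell in Au_TCPP against Control, and 1 rose and 3 fell in Cu_TCPP against Control, beside 69.1% and 40.4% of all tested genes called. With offsets for gene length these splits were 2 higher and 3 lower in Au_TCPP and 2 and 2 in Cu_TCPP, and with library totals alone that in Au_TCPP was 1 and 6. Xiap, which binds and blocks active caspases, had 63.3, 55.3 and 69.4 CPM in Au_TCPP, 122, 105 and 116 CPM in Cu_TCPP and 131, 121 and 114 CPM in Control. Its Au_TCPP libraries lay below all others, with a log2 fold change of -0.96 against Control (SE 0.0981, edgeR adjusted p = 6.5e-07). Judged by mean CPM and FPKM in Au_TCPP (62.7 and 6.47), the length of Xiap lies between those of Ripk1 (34.6 and 4.05) and Cflar (75.0 and 5.78). Genes of the length of Ripk1 and of Cflar had medians of -0.39 and -0.49 in that comparison. Birc2 and Birc3, ubiquitin ligases of the TNF receptor complex, fell in Cu_TCPP against Control by 0.39 and 0.65 (edgeR adjusted p = 0.022 and 0.012). Neither call was stable to leaving out a library, with Birc2 lost without Control replicate 2 or 3 or Cu_TCPP replicate 2 or 3 (adjusted p = 0.054 to 0.11), and Birc3 without Control replicate 1 or Cu_TCPP replicate 3 (adjusted p = 0.054 and 0.053).

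In the mitochondrial arm and among caspase substrates, 1 of 8 genes rose and 5 fell in Au_TCPP against Control, and 4 rose and 1 fell in Cu_TCPP against Control, beside 69.1% and 40.4% of all tested genes called. With offsets for gene length these splits were 2 higher and 3 lower in Au_TCPP and 5 and 1 in Cu_TCPP, and with library totals alone that in Au_TCPP was 1 and 7. The gene that rose with gold was Cycs, the cytochrome c that activates the apoptosome once released. It had 165, 176 and 161 CPM in Au_TCPP, 108, 119 and 105 CPM in Cu_TCPP and 48.4, 55.0 and 42.6 CPM in Control. The groups did not overlap, with rises against Control of 1.78 in Au_TCPP (SE 0.0995, edgeR adjusted p = 1.7e-09) and 1.19 in Cu_TCPP (SE 0.0984, edgeR adjusted p = 9.6e-07). Bid, the substrate through which Casp8 reaches the mitochondria, fell with both materials, by 0.84 in Au_TCPP (SE 0.0819, edgeR adjusted p = 3.9e-07) and by 0.43 in Cu_TCPP (SE 0.08, edgeR adjusted p = 0.00077). Dffa, the inhibitor of the nuclease that cuts DNA in apoptosis, fell by 1.31 in Au_TCPP against Control (SE 0.184, edgeR adjusted p = 1.7e-05).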

How the data were processed

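PolyA RNA of 9 libraries of 4T1 cells was made into libraries with a QIAseq FX single-cell kit and sequenced on an Illumina instrument, per the labels' protocols. The submitters' processing notes name mm10, Bowtie 0.12.9, Cufflinks 2.1.1 and HTSeq, with no version. The read counts per gene are those the authors deposited, with no further normalization, per the file headers. The authors also deposited FPKM, log2 fold changes and adjusted p-values, per the file headers. The sources used here do not name the test behind these p-values. The FPKM equal count over length and library total only up to a factor per library of unknown origin. The limma fits on FPKM carry this factor. Their median log2 fold changes over all tested genes in Au_TCPP against Control were -0.02 and -0.03. These lie near the -0.01 with TMM factors and far from the -0.43 with library totals alone. The limma fits thus scaled the libraries much as TMM factors do and are no separate check of that scaling. Group means in the same table were not used. Groups follow the titles.

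Counts of all genes were fitted with edgeR 4.0.16 in R 4.3.3 (TMM factors, filterByExpr, robust quasi-likelihood, all 9 libraries, a mean per group), with Benjamini-Hochberg adjustment over 13915 genes. Standard errors are the absolute log2 fold change over the square root of F. A common dispersion of 0.0112 was estimated. Library totals were 15477324 to 17494776, so genes of few reads, such as Fas in Cu_TCPP, are measured less precisely. Alternatives, 20 in all, were RLE factors, library totals, no filter, 1 CPM in 3 libraries, the 6 libraries of a comparison, a replicate block, offsets for gene length (spline with 5 degrees of freedom), each library left out, DESeq2 1.42.0, limma 3.58.1 on log2 FPKM plus 1 or 0.1, and a log2 fold change of at least 1. The other 19 fits named in the results are these without the last. The edgeR fit was tested on simulated counts in which few genes changed, in equal parts up and down, with no trend in gene length. That test cannot show how calls or scaling hold where much of the transcriptome is called, and its outcome is not reported here.

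Genes named come from the 8, for each list and comparison the 3 called genes of smallest p, and the 3 genes of most similar profile to each of the 8. Not every gene that this rule picks is named. Outside this rule, Fadd was chosen after its values were seen. Chuk was picked by the rule in Cu_TCPP against Control, and its value in Au_TCPP against Control is given beside that of Ikbkb. Xaf1 was picked by the rule only in Cu_TCPP against Control, and was chosen for Au_TCPP against Cu_TCPP after its values were seen. The 8 genes and the lists were chosen with earlier results of these data known. Coordinates are those of the deposited table (mm10), and 7 of the 8 genes have the same ones in GENCODE M21. Replicate numbers are not said to pair the libraries. Figures used matplotlib 3.10.9 under Python 3.11.15. Some results of the pathway lists are not reported here, though the counts of each list cover all its tested genes.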

Additional observations from a re-analysis of the deposited data

How the results depend on the processing

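Over the 20 alternatives and 3 comparisons, the 8 genes gave 400 values that kept direction and call, 53 that lost the call, 14 that gained one and 13 that changed sign, of which 8 were in Cu_TCPP against Control and were called neither way. Requiring a log2 fold change of at least 1 left 1 of the 8 genes, 6 of the 58 pathway genes and 1146 of all genes called in Cu_TCPP against Control, 1, 10 and 4003 in Au_TCPP against Control, and 2, 9 and 3729 in Au_TCPP against Cu_TCPP. Of the 8 genes, 4 were called in Au_TCPP against Control with library totals alone. Leaving out single libraries gave 4 to 6 of the 8 in Cu_TCPP against Control, 4 to 8 in Au_TCPP against Control and 5 to 7 in Au_TCPP against Cu_TCPP. For the pathway genes it gave 19 to 36, 37 to 45 and 40 to 46, and for all genes 4226 to 7179, 8859 to 10109 and 8521 to 9622. The numbers of calls among all genes were 5617, 9611 and 9176. With library totals alone they split into 2626 higher and 7098 lower in Au_TCPP against Control and 2830 and 6526 in Au_TCPP against Cu_TCPP, and with offsets for gene length into 3718 and 2379 in Cu_TCPP against Control.

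For named genes whose sign changed, the cause was not tested. In Cu_TCPP against Control all such values were within 0.09 of 0 and not called. There, Tnfrsf1a, at -0.02 in the reported fit, was at 0.09 with offsets for gene length, at 0.01 with RLE factors, DESeq2 and both limma fits, and at 0.00 with no filter. Without single libraries it was at -0.03 to 0.00, and Dhx58 in Au_TCPP against Control, also not called, at -0.06 to 0.46, with the lowest value without Au_TCPP replicate 2. Snx9 was at 0.02 and Rhbdf2 at 0.03 with the offsets, and Ripk1, Prkar1a and Pdlim5 were at -0.01 and Dync1i2 at -0.0 with library totals alone. With library totals alone, in Au_TCPP against Control, Dhx58 and Tnfrsf1a were at -0.11, Ripk1 -0.09, Prkar1a -0.02, Snx9 -0.22, Rhbdf2 -0.22, Vrk1 -0.07, Pdlim5 -0.12 and Dync1i2 -0.06. In Au_TCPP against Cu_TCPP, Tnfrsf1a was at -0.04, Ripk1 -0.08, Tnfrsf1b -0.0, Prkar1a -0.01, Snx9 -0.09, Rhbdf2 -0.11, Vrk1 -0.10, Pdlim5 -0.10 and Dync1i2 -0.06. With offsets for gene length, in Au_TCPP against Control, Cflar was at 0.30, Birc6 0.13, Itsn2 0.27 and Ints2 0.32. Of these, Cflar, Itsn2 and Ints2 were called higher (edgeR adjusted p = 0.0022, 0.0048 and 0.0021), and Birc6 was not called. With library totals alone, Snx9 and Rhbdf2 were called lower in Au_TCPP against Control (edgeR adjusted p = 0.035 in both).

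Replicate numbers are shared by the groups' titles, and deviations of same-numbered libraries had correlations of -0.0846 to 0.0897. With 3 libraries in each group these do not settle whether the numbers pair the libraries. With a replicate block, 5, 7 and 7 of the 8 genes, 29, 40 and 43 pathway genes and 5508, 9505 and 9059 of all genes were called in Cu_TCPP against Control, Au_TCPP against Control and Au_TCPP against Cu_TCPP, and the block changed no call of the 8 genes. Depth limits Fas in Cu_TCPP (54 to 62 reads) and the ligands.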

Other observations

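Genes of necroptosis and pyroptosis, which are lytic forms of cell death, were measured as another list of 10, of which 6 were tested. In Au_TCPP against Control 2 rose and 2 fell, in Cu_TCPP against Control 1 rose and 5 fell, and Au_TCPP was higher than Cu_TCPP for 4 and lower for 1. Of all tested genes 34.4% were called higher and 34.7% lower, 19.2% and 21.2%, and 34.6% and 31.3% in these comparisons. In Au_TCPP against Control the split was 2 higher and 4 lower both with library totals alone and with offsets for gene length, and in Au_TCPP against Cu_TCPP it was 2 and 2 with library totals alone and 3 and 1 with the offsets. The median log2 fold changes were -0.26, -1.16 and 0.55, against -0.01, -0.01 and 0.04 over all tested genes. Mlkl, the pore-forming effector of necroptosis, had 107, 82.7 and 122 CPM in Au_TCPP, 72.4, 70.7 and 69.2 CPM in Cu_TCPP and 54.6, 53.8 and 54.7 CPM in Control. Its groups did not overlap, with rises against Control of 0.93 in Au_TCPP (SE 0.112, edgeR adjusted p = 3.6e-06) and 0.38 in Cu_TCPP (SE 0.112, edgeR adjusted p = 0.014). Ripk3, the kinase that activates Mlkl, had 3 reads in all 9 libraries together. Gsdmd, the pore-forming substrate of Casp1, fell in Cu_TCPP against Control by 0.74 on the log2 scale (SE 0.107, edgeR adjusted p = 9.6e-05), and Gsdme, another gasdermin, fell in Au_TCPP against Control by 1.00 (SE 0.112, edgeR adjusted p = 1.8e-06). Gsdme is about as long as Cflar, judged by mean CPM and FPKM in Au_TCPP (9.93 and 0.761, beside 75.0 and 5.78). The 500 tested genes nearest to Cflar in length had a median of -0.49 in that comparison.

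Zbp1, a nucleic acid sensor upstream of Ripk3, and Xaf1, an antagonist of Xiap, had the largest differences between the materials in these lists. Zbp1 had 14.7, 32.3 and 9.47 CPM in Au_TCPP, 0.964, 0.372 and 0.282 CPM in Cu_TCPP and 4.00, 3.51 and 2.58 CPM in Control, with 5 to 17 reads in the Cu_TCPP libraries. Its log2 fold change was 5.12 in Au_TCPP against Cu_TCPP (SE 0.565, edgeR adjusted p = 1.6e-05). Xaf1, chosen here after its values were seen, had 51.8, 100 and 29.7 CPM in Au_TCPP, 2.72, 2.44 and 3.22 CPM in Cu_TCPP and 15.4, 14.7 and 12.7 CPM in Control. Groups did not overlap for either gene, and Au_TCPP replicate 2 was the highest library for both. Both were called in Au_TCPP against Cu_TCPP in all 19 other fits, with log2 fold changes of 2.30 to 5.77 for Zbp1 and 2.94 to 4.72 for Xaf1.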
